A study of Mus musculus with 16 samples.

Results

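The genes described here are 10 genes of autophagy, the process by which a cell encloses part of its own cytoplasm in a membrane and delivers it to lysosomes. They were chosen by name, with earlier results of these data known. Every probe set that the platform annotation gives to Ulk1, Becn1, Atg3, Atg5, Atg7, Atg12, Map1lc3b, Gabarapl2, Sqstm1 or Calcoco2 was taken. That gave 28 probe sets of the 45037 on the array. Testing required that 4 or more of the 16 arrays hold a value no lower than their own 40th percentile, and 26 of the 28 met this; the 2 others, Atg7 1446633_at and Atg12 1439457_x_at, reached that level on 0 arrays. Calcoco2 1429483_at and Map1lc3b 1428024_at passed through their 8 untreated arrays alone, so a fall of either is not independent of this filter.

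The study hybridized total RNA from mouse embryos at the two-cell stage to 16 arrays, in 4 groups of 4. All groups shared B6 ooplasm and a B6 paternal pronucleus. BBB embryos carried a B6 maternal pronucleus and BCB embryos a C3H one, and each kind was left untreated or given α-amanitin (the labels write α-amantin), a toxin that blocks RNA polymerase II. The dose, the time of exposure and the number of embryos per array were not stated in the labels. The labels do not say whether the 4 arrays of a group came from separate collections, so the p-values measure the spread between these arrays, which may be technical.

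Autophagy starts when the Ulk1 kinase complex and the Becn1 lipid kinase complex act on a membrane. Ubiquitin-like conjugation by Atg7, Atg3, Atg12 and Atg5 then attaches Map1lc3b and its relatives, such as Gabarapl2, to the growing membrane, and receptors such as Sqstm1 and Calcoco2 link cargo to them. In the mouse, autophagy is induced soon after fertilization, and embryos without maternal and zygotic Atg5 stop developing before the blastocyst. Two-cell embryos of the mouse replace RNA inherited from the oocyte with RNA from the activated embryonic genome.

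The bases before the annotated start of 4 of the genes are shown: Gabarapl2 and Map1lc3b for the largest falls with amanitin among the members with a promoter entry, Atg5 for the largest rise as deposited, and Atg3 because it fell and holds both motifs searched. Sequences are those of RefSeq on GRCm38.p6, on the plus strand and 5′ to 3′, and capitals mark the E-box letters CACGTG and the GC box letters GGGCGG or CCGCCC, searched on both strands. They lie at chr8:111940453-111940702 for Gabarapl2, chr8:121590188-121590437 for Map1lc3b, chr16:45158579-45158828 for Atg3 and chr10:44268089-44268321 for Atg5, and the last ends at the base before the gene's first annotated base.
Gabarapl2: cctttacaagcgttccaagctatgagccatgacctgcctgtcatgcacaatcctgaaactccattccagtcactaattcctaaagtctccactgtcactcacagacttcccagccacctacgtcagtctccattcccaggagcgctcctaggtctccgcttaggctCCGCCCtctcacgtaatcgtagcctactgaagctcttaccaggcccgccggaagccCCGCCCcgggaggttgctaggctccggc
Map1lc3b: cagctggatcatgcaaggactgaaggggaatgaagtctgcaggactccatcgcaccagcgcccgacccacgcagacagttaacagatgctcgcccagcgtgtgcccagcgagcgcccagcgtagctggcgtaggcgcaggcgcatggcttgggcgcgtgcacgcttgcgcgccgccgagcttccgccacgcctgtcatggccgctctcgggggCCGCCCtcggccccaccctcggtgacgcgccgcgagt
Atg3: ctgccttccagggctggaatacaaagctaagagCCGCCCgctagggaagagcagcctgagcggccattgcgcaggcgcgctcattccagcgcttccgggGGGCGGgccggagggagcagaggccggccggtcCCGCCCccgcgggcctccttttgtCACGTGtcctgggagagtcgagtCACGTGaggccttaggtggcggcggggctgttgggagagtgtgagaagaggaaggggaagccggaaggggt
Atg5: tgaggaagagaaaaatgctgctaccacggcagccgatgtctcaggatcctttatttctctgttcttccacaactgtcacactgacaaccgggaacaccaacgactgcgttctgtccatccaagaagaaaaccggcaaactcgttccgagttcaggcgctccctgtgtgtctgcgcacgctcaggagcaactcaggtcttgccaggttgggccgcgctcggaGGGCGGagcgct

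Of the 10 genes, 7 had an entry in the promoter table; Becn1, Calcoco2 and Atg12 had none. CACGTG stood in the 250 bases before the start of 3 of these 7 genes, against 6.02% of 32851 promoters. Atg3 held 2 matches, beginning 94 and 71 bases before its start, and Atg5 and Atg7 held 1 each, that of Atg5 beginning 14 bases before the table's start and thus past the stretch shown. GGGCGG stood in 6 of the 7, all but Atg7, against 32.7% of promoters. Gabarapl2 and Map1lc3b, which fell furthest of the 7 with amanitin, both held GGGCGG and not CACGTG, and Atg5 and Atg7, which rose as deposited, both held CACGTG, as did Atg3, which fell. A match is a description of letters only.

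On the deposited scale every array had nearly the same trimmed mean, 150, so each change below is relative to the rest of the array. The 9 hybridization control probe sets were higher with amanitin by 0.55 log2 in BBB and 0.81 log2 in BCB, and the 12 poly-A control probe sets by 1.86 and 1.88 log2 (exact two-sided permutation p = 0.0286 each, the smallest that 4 against 4 arrays allow; adjusted p = 0.0786 over 44 tests of array measures). The labels do not give the amounts of control RNA, so fewer cells, less RNA per cell and more control RNA cannot be told apart. With the poly-A controls set equal on all arrays, the median gene stood at −1.17 log2 in BBB and −1.13 log2 in BCB, against 0.11 and 0.17 as deposited. Of 12 two-cell embryo markers 8 were tested, and as deposited 1 rose and 7 fell in each kind, against 0 and 7 with poly-A scaling. Their summed level lay between 13036 and 14097 on the untreated arrays and between 763 and 1293 with amanitin. That of the 12 oocyte markers lay between 17169 and 20427 untreated and between 30790 and 36883 with amanitin, and 8 of the 12 rose as deposited and 0 fell in each kind, but scaled to the poly-A controls 0 rose and 9 fell in BBB and 10 fell in BCB. Of 15 cumulus and granulosa cell markers 10 were tested, and as deposited 5 rose and 3 fell in BBB and 3 rose and 3 fell in BCB, against 0 and 7 in each kind with poly-A scaling. Their summed level lay between 2776 and 3549 in BBB, 3317 and 4123 in BCB, and 379 and 477 or 434 and 489 in the same kinds with amanitin, and rested on Amhr2 and Gja1. Amhr2 went from a mean of 2086 to 58.9 in BBB and Gja1 from 894 to 29.0, while Kitl went from 85.6 to 163 as deposited. The defining marker Amh lay between 1.1 and 4.0 on all arrays, and the part of such cells in the results was not tested. The ratio of actin 3′ to 5′ control probe sets was lower with amanitin, at 6.42 against 7.77 in BBB and 6.95 against 8.58 in BCB (exact two-sided permutation p = 0.0286 each; adjusted p = 0.0786), and that of Gapdh was 11.8 against 12.4 (p = 0.6) and 11.9 against 13.0 (p = 0.314).

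With amanitin, 9 of the 10 genes passed the test in the same direction in both kinds of embryo as deposited. The tenth, Atg12, passed in BBB alone, at 0.26 log2 there and 0.18 log2 in BCB. The difference between these 2 changes did not pass (limma adjusted p = 0.943). In BBB embryos 6 of the 10 fell, namely Ulk1, Atg3, Map1lc3b, Gabarapl2, Sqstm1 and Calcoco2, and 4 rose as deposited, namely Becn1, Atg5, Atg7 and Atg12, though scaled to the poly-A controls none of the 4 rose. In BCB embryos the same 6 fell, 3 rose as deposited and Atg12 did not pass. Over all genes tested, 70.5% passed in BBB (37.1% higher, 33.4% lower) and 72.1% in BCB (39.9% higher, 32.2% lower), at a limma p under 0.05 after Benjamini-Hochberg adjustment over all probe sets tested. The median change of the 10 genes was −1.52 log2 in BBB and −1.40 log2 in BCB, against 0.11 and 0.17 for all genes. For the 70 other autophagy genes described below it was 0.11 and 0.07 log2. The 10 were chosen with earlier results of these data known, so this contrast is a description only. Each gene is represented by the tested probe set of highest mean intensity, and changes are differences of log2(intensity + 16), which understate the change of dim probe sets.

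**Figure D1:**
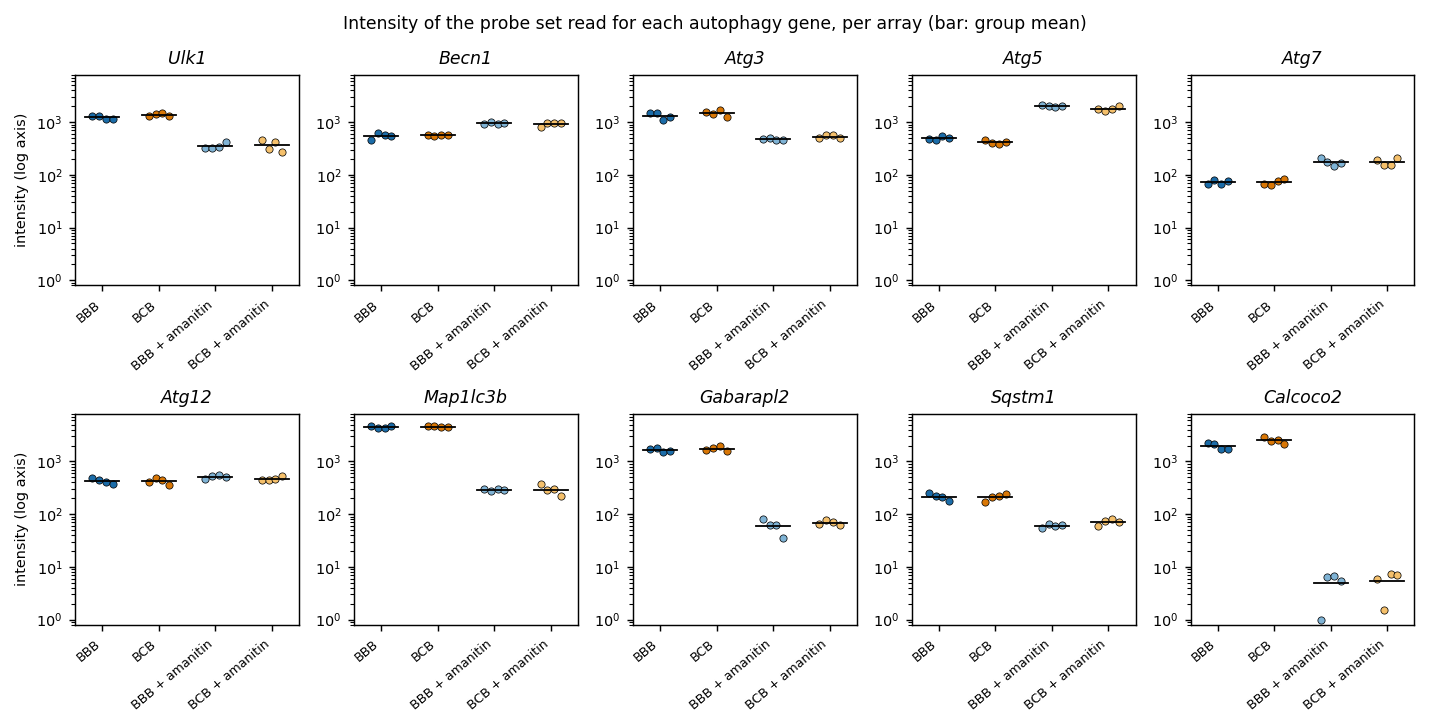
Intensity of the probe set read for each of the 10 genes on every array, on a log axis; each point is 1 array and each bar the mean of 4. Calcoco2, Gabarapl2 and Map1lc3b lie far lower on the amanitin arrays, Atg5 lies higher as deposited, and the BBB and BCB points of each treatment mostly overlap.

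Ulk1, the kinase that starts autophagosome formation, was read from 1448370_at. BBB arrays 1 to 4 gave 1290.2, 1326.2, 1169.6 and 1157.8 (mean 1236 ± 84.8, SD), and those with amanitin 326.5, 330.3, 343.6 and 412.6 (353 ± 40.2). BCB arrays gave 1316.7, 1404.2, 1502.9 and 1283.2 (1377 ± 98.4), and with amanitin 451.8, 315.6, 415.6 and 277.2 (365 ± 82.1). Every treated array lay well under every untreated one. Ulk1 fell in both kinds, with changes of −1.77 ± 0.12 log2 (SE) in BBB (limma adjusted p = 9.04e-12) and −1.89 log2 in BCB (2.71e-12). Its second probe set, 1416504_at, differed by −0.25 log2 in BBB (adjusted p = 0.08) and −0.04 log2 in BCB (0.759), and its groups overlapped. The response of the brighter probe set minus that of the other was −1.52 log2 in BBB and −1.85 log2 in BCB.

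Becn1, a subunit of the lipid kinase complex that marks the forming membrane, was read from 1455880_s_at. Its BBB values were 455.6, 631.1, 575.3 and 547.5 (552 ± 73.3), and 916.3, 1003.3, 929.2 and 977.4 with amanitin (957 ± 40.8). BCB values were 571.6, 548.6, 571.1 and 566.3 (564 ± 10.8), and 819.1, 955.5, 963.7 and 967.7 with amanitin (927 ± 71.8). All treated arrays lay above all untreated ones. As deposited Becn1 rose by 0.78 ± 0.10 log2 in BBB (limma adjusted p = 1.58e-07) and by 0.70 log2 in BCB (9.75e-07), but the value was −1.04 and −1.14 log2 when scaled to the poly-A controls, and 0.24 (adjusted p = 0.153) and −0.09 log2 (0.598) when scaled to the hybridization controls.

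The other 4 tested Becn1 probe sets did not give 1 picture. The next brightest, 1460320_at, differed by −0.14 log2 in BBB (limma adjusted p = 0.327) and −0.01 log2 in BCB (0.963), with overlapping groups. The dim 1437006_x_at rose as deposited by 0.64 log2 in BBB (adjusted p = 0.0139), a call lost in 1 of 8 refits that each left out 1 array, and gave 0.49 log2 in BCB (0.0543). A rise of 1.18 ± 0.38 log2 as deposited was seen with 1435219_x_at in BBB (adjusted p = 0.00908), where untreated array 3 gave 10.2, under its 40th percentile. In BCB it gave 0.01 log2 (0.985), and its treated arrays spread from 3.3 to 86.8. Scaled to the poly-A controls, neither 1437006_x_at nor 1435219_x_at passed as higher in either kind. The last, 1430358_at, did not pass in either kind.

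Atg7, the enzyme that activates the ubiquitin-like proteins Atg12 and Map1lc3b, was read from 1428612_at. BBB arrays gave 67.7, 79.7, 67.4 and 77.1 (73.0 ± 6.35), and 205.1, 173.6, 145.7 and 165.9 with amanitin (173 ± 24.7). BCB arrays gave 67.4, 64.6, 76.4 and 82.8 (72.8 ± 8.35), and 188.1, 153.7, 152.9 and 212.3 with amanitin (177 ± 28.8). The groups did not overlap. As deposited Atg7 rose by 1.08 ± 0.14 log2 in BBB (limma adjusted p = 3.04e-07) and 1.11 log2 in BCB (1.9e-07), with −0.55 and −0.52 log2 when scaled to the poly-A controls. A second probe set, 1428611_at, also rose as deposited, by 1.05 log2 in BBB (adjusted p = 1.68e-05) and 0.66 log2 in BCB (0.00253).

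The third tested Atg7 probe set, 1428610_at, went the other way. On BBB arrays 1 to 4 it gave 44.1, 27.9, 6.6 and 4.8, and on BCB arrays 43.1, 45.0, 53.6 and 47.5. With amanitin 7 of the 8 arrays lay at or under 11.6, and BBB array 2 gave 26.7. All 4 treated BCB values lay under the 40th percentile of their arrays, so its fall in BCB is known only as a bound, at least 3.75-fold (limma adjusted p = 6.06e-05). It differed by −0.44 log2 in BBB (0.165), where untreated arrays 3 and 4 were as low as the treated ones.

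Atg3, the enzyme that passes Map1lc3b to its membrane lipid, was read from 1448993_at. BBB arrays gave 1461.9, 1500.0, 1095.6 and 1241.2 (1325 ± 191), and 484.5, 492.1, 452.7 and 456.5 with amanitin (471 ± 19.8). BCB arrays gave 1524.6, 1437.0, 1681.1 and 1238.4 (1470 ± 185), and 495.5, 570.4, 562.0 and 506.6 with amanitin (534 ± 38.0). The highest treated array lay far under the lowest untreated one. Atg3 fell in both kinds, with changes of −1.45 ± 0.11 log2 in BBB (limma adjusted p = 2.22e-11) and −1.43 log2 in BCB (2.97e-11). Its other probe set, 1418179_at, was dim, between 8.0 and 28.4 on all arrays, and gave 0.32 log2 in BBB (adjusted p = 0.08) and 0.30 log2 in BCB (0.0943).

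Atg5, which is joined to Atg12 to form the complex that directs lipidation, was the member with the largest rise as deposited. Its probe set 1418236_s_at gave 481.7, 464.8, 542.8 and 495.6 on BBB arrays (496 ± 33.5), and 2111.0, 1993.9, 1904.4 and 2015.4 with amanitin (2006 ± 84.8). BCB arrays gave 449.4, 409.3, 380.8 and 418.6 (415 ± 28.3), and 1795.1, 1623.9, 1743.9 and 2063.3 with amanitin (1807 ± 186). All treated arrays lay far above all untreated ones. As deposited Atg5 rose by 1.98 ± 0.09 log2 in BBB (limma adjusted p = 3.24e-15) and 2.08 log2 in BCB (1.33e-15), with 0.15 (adjusted p = 0.479) and 0.24 log2 (0.277) when scaled to the poly-A controls and 1.44 and 1.29 log2 when scaled to the hybridization controls. Both other probe sets rose as deposited too, 1418235_at by 2.03 log2 in BBB and 2.05 log2 in BCB, and 1415684_at by 1.39 and 1.50 log2.

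Atg12, the ubiquitin-like protein joined to Atg5, gave changes of opposite sign from its 2 tested probe sets, that of the brighter one being small. The brighter, 1451747_a_at, gave 489.2, 437.5, 408.1 and 371.3 on BBB arrays (427 ± 49.8), and 457.8, 533.2, 541.4 and 515.2 with amanitin (512 ± 37.7). BCB arrays gave 405.8, 478.0, 441.4 and 351.2 (419 ± 54.0), and 441.7, 447.9, 466.9 and 539.7 with amanitin (474 ± 45.1). The groups overlapped in both kinds. As deposited it rose by 0.26 ± 0.11 log2 in BBB (limma adjusted p = 0.0496) and gave 0.18 log2 in BCB (0.175), but the BBB call was lost in 6 of 8 refits that each left out 1 array and in the refit without BBB arrays 3 and 4 (adjusted p = 0.391), and the sign turned with both control scalings.

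The dimmer Atg12 probe set, 1451746_a_at, gave 73.2, 60.6, 38.7 and 51.1 on BBB arrays and 8.0, 11.3, 13.0 and 33.5 with amanitin. BCB arrays gave 44.0, 35.7, 47.0 and 37.1, and 8.4, 16.4, 17.3 and 15.4 with amanitin. No treated array reached an untreated one. It fell in both kinds, with changes of −1.18 ± 0.20 log2 in BBB (limma adjusted p = 1.59e-05) and −0.91 log2 in BCB (0.000348). The response of the brighter probe set minus that of this one was 1.44 log2 in BBB and 1.09 log2 in BCB. For this dimmer probe set, treated BBB arrays 1 and 2 and treated BCB array 1 lay under the 40th percentile of their arrays. The sizes of its fall and of that difference are therefore uncertain.

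Map1lc3b, the ubiquitin-like protein that coats autophagosomes, fell on all 4 of its probe sets, by very different amounts. The brightest, 1415930_a_at, gave 4701.9, 4255.3, 4285.4 and 4682.0 on BBB arrays (4481 ± 244), and 296.2, 270.4, 299.8 and 286.8 with amanitin (288 ± 13.1). BCB arrays gave 4710.2, 4625.9, 4558.6 and 4456.5 (4588 ± 107), and 366.4, 291.5, 296.9 and 216.5 with amanitin (293 ± 61.3). The treated arrays were tightly grouped far below the untreated ones. The change was −3.88 ± 0.11 log2 in BBB (limma adjusted p = 5.99e-19) and −3.92 log2 in BCB (4.51e-19).

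On 1415928_a_at, Map1lc3b gave 2058.1, 2473.4, 2012.6 and 1991.6 in BBB (2134 ± 228), and 1342.7, 1296.0, 1357.5 and 1380.4 with amanitin (1344 ± 35.7). BCB arrays gave 2753.8, 2841.6, 2936.8 and 2487.0 (2755 ± 194), and 1501.9, 1290.0, 1398.8 and 1355.0 with amanitin (1386 ± 89.0). The groups did not overlap. It fell in both kinds, with changes of −0.66 ± 0.08 log2 in BBB (limma adjusted p = 1.55e-07) and −0.98 log2 in BCB (1.64e-10). The response of 1415930_a_at minus that of 1415928_a_at was −3.23 log2 in BBB and −2.94 log2 in BCB. The probe set 1415929_at also fell, with −0.69 log2 in BBB and −1.17 log2 in BCB. All treated values of 1428024_at lay under the 40th percentile of their arrays, and it was at least 2.13-fold lower in BBB and at least 2.26-fold lower in BCB. It was tested through its untreated arrays alone, so its fall is not independent of the filter.

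Over the 9 genes with more than 1 tested probe set, the response of the probe set read for the gene was set against that of the next brightest one in each kind, as an exact two-sided permutation test of the difference between both within an array. These 18 tests were chosen after the values were seen. For Atg3, Atg12, Gabarapl2 and Sqstm1 the comparison probe set was under the 40th percentile on some arrays. The size of a fall, or its absence, cannot be read there, so their 8 tests are not counted. For the other 5 genes the responses differed in 7 of 10 tests (adjusted p = 0.0409 each, with an exact p of 0.0286, the smallest possible). How often probe sets of other genes differ in this way was not tested, so the count describes these 5 genes only. The exceptions were Atg7 in BBB (adjusted p = 0.943) and BCB (0.0952), and Atg5 in BCB (0.0714). The lower actin 3′ to 5′ ratio of the treated arrays moved with these differences, and its part in them was not tested. The sequences of the probes were not used here, so which transcript end or variant each probe set reads is not given.

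**Figure D2:**
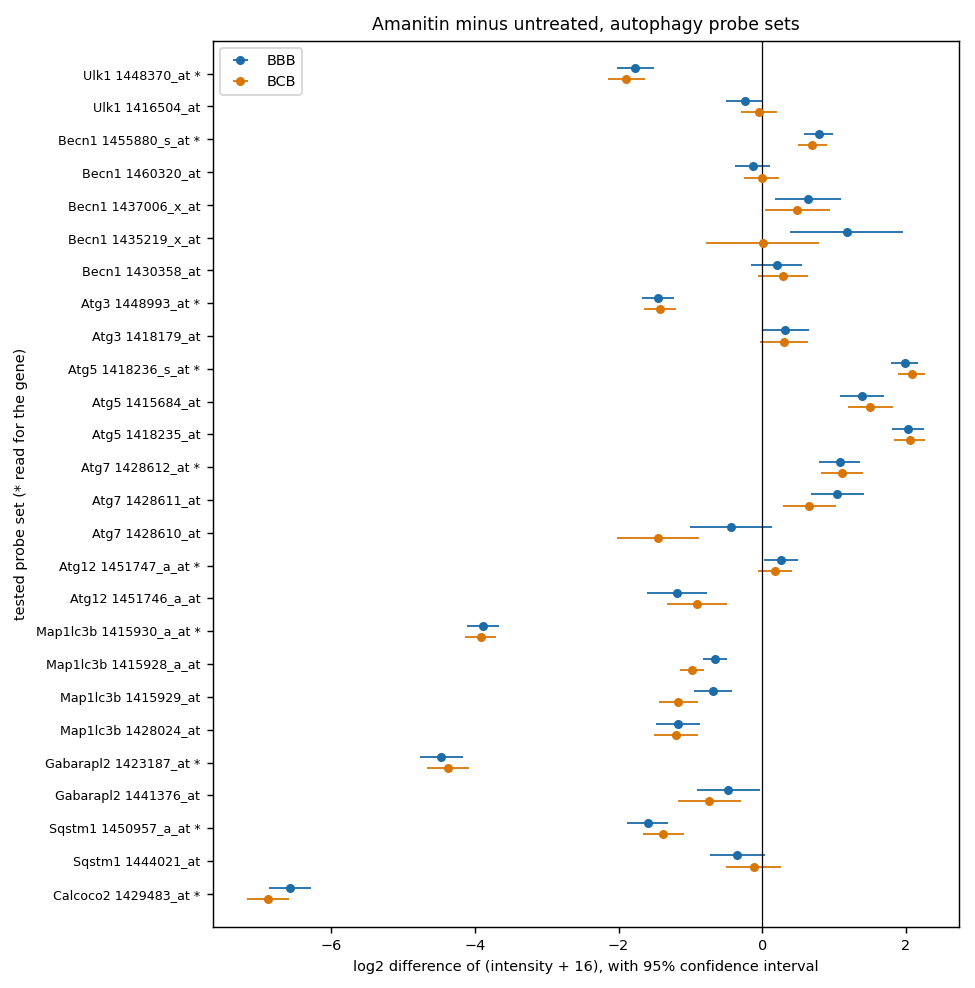
Change with amanitin of the 26 tested probe sets of the 10 genes, as the difference of log2(intensity + 16) on the deposited scale with its 95% confidence interval, in BBB and BCB embryos; a star marks the probe set read for the gene. Calcoco2 lies near −6.57 and −6.88, the Atg5 probe sets lie above 1, and probe sets of Ulk1, Becn1, Atg7, Atg12 and Map1lc3b are spread along the axis; Calcoco2, Map1lc3b 1428024_at and, in BCB, Atg7 1428610_at hold only a bound, and rises vanish or turn when scaled to the poly-A controls.

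Gabarapl2, a relative of Map1lc3b that also binds the autophagosome membrane, had a larger negative change than the probe set read for Map1lc3b. Its probe set 1423187_at gave 1703.4, 1771.4, 1512.5 and 1567.8 on BBB arrays (1639 ± 119), and 82.1, 61.7, 63.1 and 35.9 with amanitin (60.7 ± 19.0). BCB arrays gave 1682.1, 1772.4, 1938.3 and 1585.6 (1745 ± 150.0), and 65.1, 77.1, 69.9 and 62.6 with amanitin (68.7 ± 6.38). Every treated array lay far under the untreated ones. Gabarapl2 fell in both kinds, with changes of −4.46 ± 0.14 log2 in BBB (limma adjusted p = 6.99e-18) and −4.38 log2 in BCB (9.12e-18). The dim second probe set, 1441376_at, gave −0.47 log2 in BBB (adjusted p = 0.0556) and fell by 0.74 log2 in BCB (0.00402), with overlapping groups.

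Sqstm1, or p62, the receptor that carries ubiquitin-marked cargo to autophagosomes, was read from 1450957_a_at. BBB arrays gave 251.0, 226.0, 210.8 and 175.4 (216 ± 31.6), and 54.6, 65.3, 59.6 and 62.0 with amanitin (60.4 ± 4.50). BCB arrays gave 171.8, 209.0, 225.6 and 236.9 (211 ± 28.4), and 58.8, 74.6, 79.5 and 71.6 with amanitin (71.1 ± 8.84). The untreated arrays of both kinds covered nearly the same range, and the treated ones lay under all of them. Sqstm1 fell in both kinds, with changes of −1.59 ± 0.14 log2 in BBB (limma adjusted p = 3.67e-10) and −1.38 log2 in BCB (4.75e-09). Its second probe set, 1444021_at, reached the 40th percentile on 4 arrays and did not pass.

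Calcoco2, known from human cells as a receptor for bacteria and damaged mitochondria, fell furthest of the 10. Its only probe set, 1429483_at, gave 2229.2, 2185.8, 1704.5 and 1750.8 on BBB arrays (1968 ± 278) and 2859.3, 2486.0, 2573.4 and 2113.4 on BCB arrays (2508 ± 308). With amanitin it gave 1.0, 6.3, 6.7 and 5.4 in BBB and 5.8, 1.5, 7.3 and 7.0 in BCB, all under the 40th percentile of their arrays, which ran from 10.8 to 14.1. Calcoco2 was tested through its untreated arrays alone, so its fall and the p-values are not independent of the filter. The change was −6.57 ± 0.14 log2 in BBB (limma adjusted p = 1.93e-20) and −6.88 log2 in BCB (7.41e-21). Its size depended on the pseudocount, being −8.56 and −8.75 log2 with 1 in place of 16. With each treated value raised to its array's 40th percentile, Calcoco2 was at least 171-fold lower in BBB and at least 198-fold lower in BCB.

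Among 15273 other genes, those whose 4 group means of log2(intensity + 16) lay nearest to those of Calcoco2 were Exoc3l2, at a Euclidean distance of 0.298, Ubtfl1, at 0.452, and Btbd18, at 0.47. They were picked by that distance, which compares levels of different probe sets and includes treated Calcoco2 values under the 40th percentile, so it is a description only.

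The groups of arrays stood apart in the same manner gene by gene. In BBB the treated arrays of 6 genes lay under every untreated one, those of 3 lay above, and Atg12 overlapped, and the same counts held in BCB. Over all genes tested the groups did not overlap for 64.9% in BBB (33.9% higher, 31.0% lower) and 65.6% in BCB (35.6% higher, 30.0% lower). Of the 26 tested probe sets, 9 rose as deposited and 10 fell in BBB, and 6 rose and 12 fell in BCB. Of all probe sets tested 66.2% passed in BBB (34.3% higher, 31.9% lower) and 67.9% in BCB (37.6% higher, 30.3% lower).

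The rises depended on the scaling of the arrays in direction, and the falls of the 6 genes in size. Scaled to the hybridization controls, 6 probe sets were higher and 15 lower in BBB, and 4 and 15 in BCB. Scaled to the poly-A controls, 0 were higher and 21 lower in BBB, and 0 and 23 in BCB. With quantile normalization the counts were 10 higher and 10 lower in BBB and 8 and 12 in BCB. The shares of all probe sets that passed under these scalings are not given here, so the counts describe these probe sets only. The median gene itself stood at −1.17 log2 in BBB and −1.13 log2 in BCB with the poly-A controls. The 6 genes that fell passed as lower under all 4 scalings in both kinds. From deposited to poly-A scaling, the BBB change went from −1.77 to −3.57 log2 for Ulk1, −1.45 to −3.26 for Atg3, −1.59 to −3.17 for Sqstm1, −3.88 to −5.68 for Map1lc3b, −4.46 to −6.07 for Gabarapl2 and −6.57 to −7.72 for Calcoco2. Against the median gene of −1.17 log2 under poly-A scaling, Atg5 stood at 0.15 log2 and Atg7 at −0.55 log2 in BBB, both above the median gene. Becn1 lay only slightly above the median gene there, and Atg12 lay below it.

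**Figure D3:**
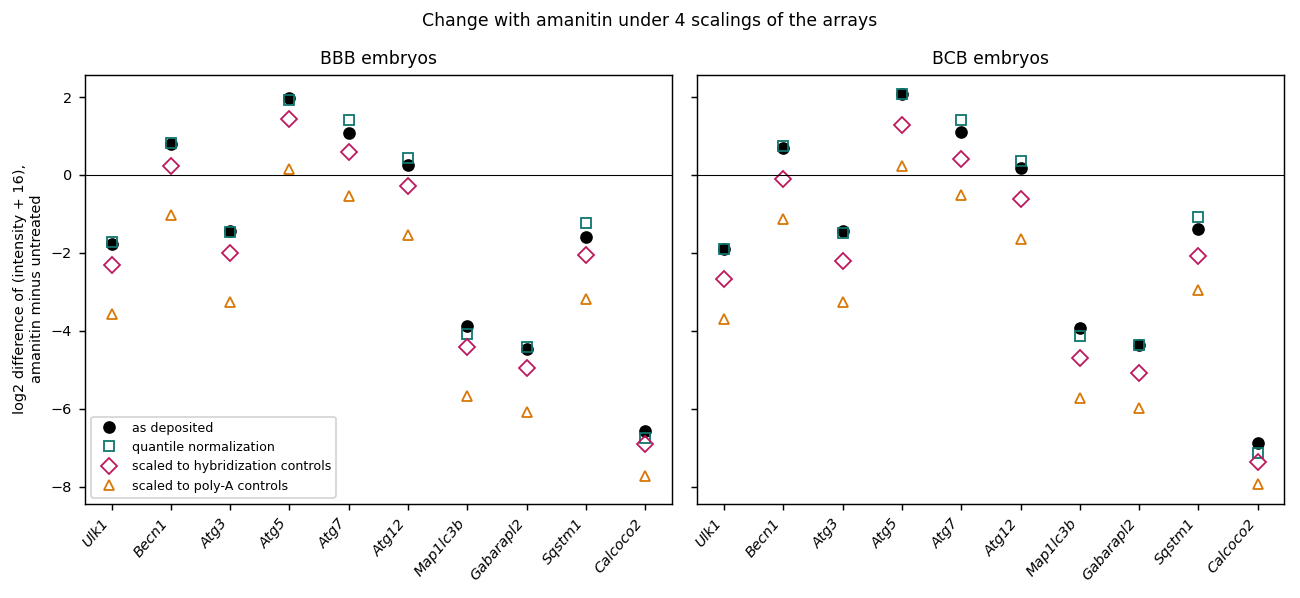
Change with amanitin of the probe set read for each of the 10 genes, in log2(intensity + 16), under 4 scalings of the arrays, for BBB and BCB embryos. Ulk1, Atg3, Map1lc3b, Gabarapl2, Sqstm1 and Calcoco2 lie under 0 with every symbol, while Becn1, Atg7 and Atg12 lie above 0 as deposited and under 0 with the poly-A controls.

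A further 75 genes of autophagy were put in 7 lists by role, and 70 of them were tested (Atg9b, Atg16l2, Optn, Bnip3l and Prkaa1 were not). As deposited 29 rose, 27 fell and 14 did not pass in BBB, with the same 3 counts in BCB, and their median change was 0.11 log2 in BBB and 0.07 log2 in BCB. The 56 of 70 that passed in each kind stand against 70.5% and 72.1% of all genes. Scaled to the poly-A controls, 1 rose and 63 fell in BBB and 1 rose and 60 fell in BCB, and the 1 that rose in each was Stx17. The median of all genes stood at −1.17 and −1.13 log2 under that scaling, and the share of all genes that fell is not given here. Directions of the rises below hold for the deposited scale. All 27 falls passed with both control scalings in each kind, with a median move of −1.69 log2 in both kinds under poly-A scaling, so the sizes below also hold for the deposited scale. With quantile normalization 23 of the 27 passed in each kind, and Atg13, Atg2b and Rptor in both, Atg2a in BBB and Tax1bp1 in BCB did not.

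In the initiation kinase complex 2 of 4 genes rose as deposited and 2 fell in both kinds. Rb1cc1, the scaffold of the complex, rose by 1.14 log2 in BBB and 1.07 log2 in BCB, with −0.69 and −0.78 log2 when scaled to the poly-A controls. Atg101, a subunit that stabilizes it, fell by 3.03 log2 in BBB, from 409 ± 23.2 to 36.4 ± 8.18, and fell by 3.23 log2 in BCB. Of the lipid kinase complex and its partners, 2 of 8 rose as deposited and 4 fell in each kind. Becn2, a relative of Becn1, changed by −2.89 log2 in BBB and −2.61 log2 in BCB, and Atg14, the subunit that brings the complex to the site of autophagosome formation, by −2.66 and −2.71 log2. Rubcn, an inhibitor of the complex, rose as deposited by 1.70 log2 in BBB and 1.49 log2 in BCB, with −0.04 and −0.27 log2 under poly-A scaling.

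Of 10 genes of membrane supply and elongation 3 rose as deposited and 7 fell in each kind, with a median of −1.04 log2 in BBB, −0.79 log2 with quantile normalization and −2.73 log2 with poly-A scaling; with quantile normalization 5 fell in BBB and 6 in BCB. The largest fall and the largest rise were those of Wipi2 and Wipi1, which both encode phosphoinositide-binding proteins of the WIPI family. Wipi2 fell by 3.79 log2 in BBB, from 1835 ± 143 to 134 ± 72.7, and fell by 3.91 log2 in BCB. Wipi1 rose as deposited by 1.93 log2 in BBB, from 237 ± 24.5 to 946 ± 74.7, and by 1.85 log2 in BCB, with 0.14 (limma adjusted p = 0.528) and 0.04 log2 (0.865) under poly-A scaling.

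Among the 9 other genes of the conjugation systems 4 rose as deposited and 4 fell in BBB, and 3 rose and 4 fell in BCB. Atg4d, a protease that trims Map1lc3b relatives, changed by −1.97 log2 in BBB and −1.38 log2 in BCB. Gabarap, the namesake of the subfamily of Gabarapl2, changed by −1.70 log2 in BBB and −2.35 log2 in BCB. Atg10, the enzyme that joins Atg12 to Atg5, rose as deposited by 1.51 log2 in BBB and 1.18 log2 in BCB, with −0.06 and −0.42 log2 under poly-A scaling. Atg4a, another such protease, rose as deposited by 1.17 and 1.52 log2, with −0.46 and −0.11 log2 under poly-A scaling.

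Of 10 other selective receptors 3 rose as deposited and 4 fell in each kind. Fundc1, a receptor on mitochondria, fell by 4.43 log2 in BBB, from 2572 ± 326 to 104 ± 21.6, and fell by 4.11 log2 in BCB. Stbd1, a glycogen-binding receptor, rose as deposited by 1.01 and 1.15 log2, with −0.82 and −0.70 log2 under poly-A scaling. Of 11 genes of fusion with lysosomes 6 rose as deposited and 2 fell in each kind, with a median of 1.19 log2 in BBB, against 0.65 log2 with quantile normalization and −0.61 log2 with poly-A scaling, where 1 rose and 8 fell. Stx17, the membrane fusion protein of autophagosomes, rose by 2.48 log2 in BBB, from 147 ± 37.7 to 878 ± 64.5, and by 2.36 log2 in BCB, and stayed higher under poly-A scaling by 0.71 log2 (limma adjusted p = 0.00182) and 0.57 log2 (0.012). Epg5, a tether for that fusion, changed by −2.30 and −2.38 log2.

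Of 18 upstream regulators 9 rose as deposited and 4 fell in BBB, and 10 and 4 in BCB. Stk11, the kinase that activates AMPK, rose as deposited by 1.41 log2 in BBB and 1.28 log2 in BCB, with −0.42 and −0.57 log2 under poly-A scaling. Trp53inp2, which binds Map1lc3b relatives, rose as deposited by 1.34 and 1.39 log2, with −0.51 and −0.47 log2 under that scaling. Tfeb, a transcription factor of lysosomal and autophagy genes, changed by −1.17 and −1.27 log2, and by −2.31 and −2.40 log2 under that scaling.

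**Figure D4:**
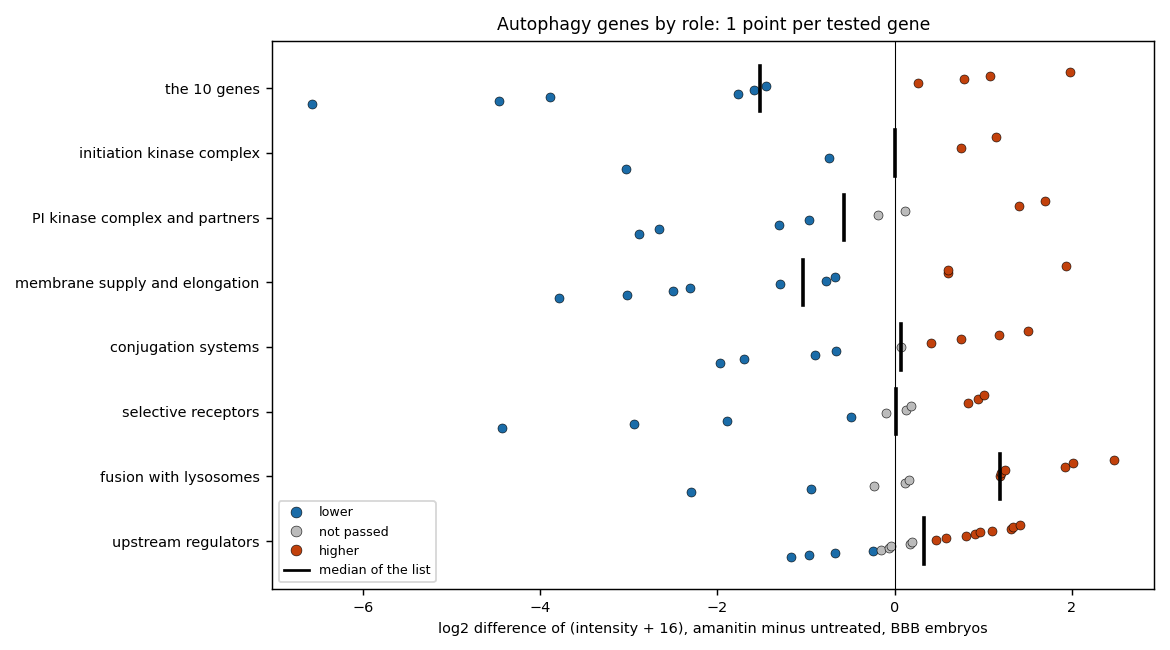
Change with amanitin in BBB embryos as the difference of log2(intensity + 16) on the deposited scale, 1 point per tested gene, for the 10 genes and 7 further lists; black bars are medians and colours the limma call. The medians run from −1.52 for the 10 genes to 1.19 for fusion with lysosomes, which was −0.61 with poly-A scaling; scaled to the poly-A controls, of all the 70 other genes Stx17 alone passed as higher.

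The strain of the maternal pronucleus was compared next, BCB against BBB. Untreated, 0 of the 10 genes passed, against 0.674% of all genes tested; 2 of the 10 had an unadjusted limma p under 0.05. These were Atg5, at −0.25 ± 0.09 log2 (adjusted p = 0.399), and Calcoco2, at 0.35 ± 0.14 log2 with a 95% confidence interval from 0.06 to 0.64 (0.542). The share of all genes with an unadjusted p under 0.05 is not given here, so that count describes the members only. The groups of Atg5 did not overlap, with all 4 BCB arrays under all 4 BBB arrays, as for 3.59% of all genes tested. For the probe set read for Map1lc3b the difference was 0.04 log2, with an interval from −0.18 to 0.25.

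Among the 26 tested probe sets 1 passed, against 0.613% of all (0.376% higher). Map1lc3b 1415928_a_at was higher in BCB by 0.37 ± 0.08 log2 (limma adjusted p = 0.0302, interval 0.20 to 0.54), and the 4 BCB arrays lay above the 4 BBB arrays. The call was lost in 6 of 8 refits that each left out 1 array, in which the difference ran from 0.34 to 0.44 log2 and the adjusted p reached 0.157. Those left out BBB array 1 (adjusted p = 0.104), BBB array 3 or 4 (0.132 each) or BCB array 1, 2 or 3 (0.0748, 0.13 and 0.157). It was also lost without BBB arrays 3 and 4 together (0.28 log2, adjusted p = 0.553), with both control scalings (0.0695 and 0.811) and with a pseudocount of 1 (0.0527). The neighbouring probe set 1415929_at gave 0.53 ± 0.13 log2 (adjusted p = 0.0661), with BBB values of 791.8, 1031.6, 693.1 and 682.0 against BCB values of 949.7, 1296.5, 1410.6 and 979.6, which overlap. It passed in 3 of 8 refits that each left out 1 array, namely BBB array 2 (adjusted p = 0.00854), BCB array 1 (0.0301) or BCB array 4 (0.0495), and with a pseudocount of 64 (0.032).

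Atg7 1428610_at, described above, gave the largest difference between the kinds, 0.92 ± 0.27 log2, and did not pass (limma adjusted p = 0.2). It rested on BBB arrays 3 and 4: without them it was 0.30 log2 (adjusted p = 1). It passed as higher in BCB with poly-A scaling (1.09 log2, adjusted p = 0.015) and in 1 of 8 refits that each left out 1 array, that without BBB array 1 (0.0318). BBB arrays 3 and 4 were the lowest of the 4 for 13 of the 26 probe sets and for the probe set read for 6 of the 10 genes, Ulk1, Atg3, Atg12, Gabarapl2, Sqstm1 and Calcoco2. How often these arrays were lowest over all probe sets is not given here, so the counts describe the members only. The comparison of untreated kinds and the comparison of amanitin with untreated BBB share the 4 BBB arrays, so their values are not independent.

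With amanitin, 0 of the 10 genes and 0 of the 26 probe sets passed between the kinds, against 0.0851% of all genes and 0.113% of all probe sets; 0 genes and 1 probe set had an unadjusted limma p under 0.05. That probe set was Becn1 1435219_x_at, at −0.79 log2 (adjusted p = 0.457). The groups of Atg3 did not overlap, with BCB higher by 0.17 log2 (adjusted p = 0.597), as for 2.01% of all genes tested. For the interaction, that is the effect of amanitin in BCB less its effect in BBB, 0 genes and 0 probe sets passed, against 0.255% and 0.257%, and 0 genes and 4 probe sets had an unadjusted limma p under 0.05. These were Map1lc3b 1415928_a_at at −0.33 ± 0.11 log2 (adjusted p = 0.376) and 1415929_at at −0.47 ± 0.18 log2 (0.433), Atg7 1428610_at at −1.01 ± 0.39 log2 (0.437) and Becn1 1435219_x_at at −1.17 ± 0.54 log2 (0.56). The 70 other autophagy genes gave 0 calls in all 3 of these comparisons, with 1, 6 and 2 at an unadjusted p under 0.05. The percentages above are for adjusted p. Shares of all genes and probe sets at an unadjusted p under 0.05 are not given here, so the unadjusted counts describe the named genes only.

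**Figure D5:**
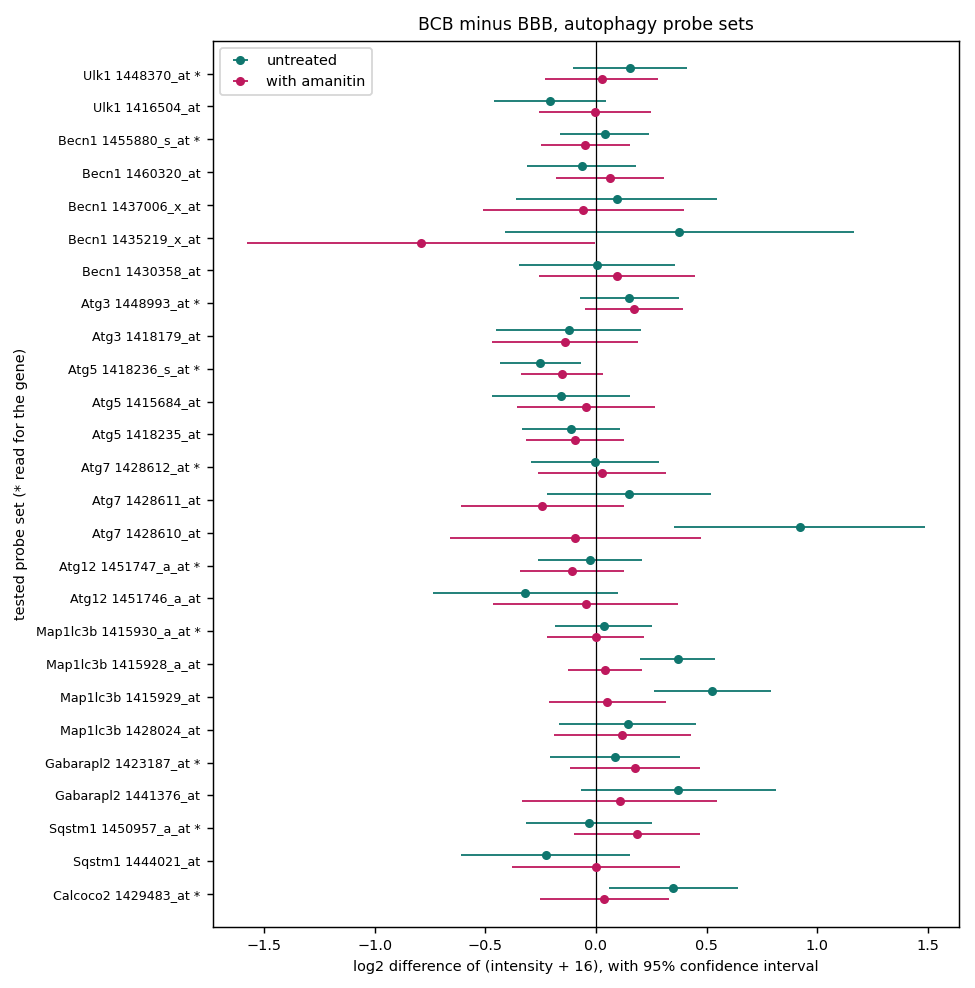
Difference of BCB from BBB embryos for the 26 tested probe sets, as the difference of log2(intensity + 16) with its 95% confidence interval, untreated and with amanitin; a star marks the probe set read for the gene. Map1lc3b 1415928_a_at, at 0.37 untreated, is the 1 that passed as deposited, and it did not pass with either control scaling; most other intervals include 0.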

How the data were processed

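The deposited table holds 1 intensity per probe set and array on a linear scale, in which the mean without the highest and lowest 2% was 150 on every array. No source used here names the software or the scaling behind these values. Per the labels, a Picopure kit gave the RNA, which carried biotin. Genes were named from the platform annotation (34945 probe sets with 1 symbol). The 64 control probe sets were left out of the tests. No columns were unused and no arrays identical.

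Values were taken as log2(intensity + 16) and fitted in limma 3.58.1 (R 4.3.3) with a mean per group and an intensity trend. The Benjamini-Hochberg adjustment ran over 31953 probe sets. Each of 15274 genes took the adjusted p of the probe set read for it, with no separate adjustment over genes. The procedure was tested on simulated data. The number of arrays limits the precision; the median SE was 0.17 log2. Members and lists were chosen with earlier results of these data known. Named genes are all members and, in each list, the largest called rise and fall with amanitin in each kind. Alternatives were scaling, pseudocount, filter, trend, probe set choice, samples in the fit, replicate block and leaving out arrays.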

Additional observations from a re-analysis of the deposited data

Results flagged for a closer look

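In 104 groups of 4 arrays, 1 for each tested probe set and group, 4 held an array whose gap to its nearest neighbour was an unusually large share of the group's range; chance gives about 1 in 20 groups. The share was 0.916 for Atg5 1415684_at in untreated BCB, where array 4 gave 669.6 and the others 481.5 to 495.1. It was 0.989 for Atg5 1418235_at in BBB with amanitin, where array 1 gave 872.9 and the others 807.4 to 808.1. For Becn1 1455880_s_at in BCB with amanitin it was 0.924, array 1 giving 819.1 and the others 955.5 to 967.7. For Map1lc3b 1415928_a_at in untreated BBB it was 0.849, array 2 giving 2473.4 and the others 1991.6 to 2058.1; without that array the BCB difference of this probe set was called with an adjusted p of 0.00567 (limma).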

How the results depend on the processing

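In each of 5 contrasts the 10 genes were refitted under every alternative that could be run, 1 of them, leaving out BBB arrays 3 and 4 together, chosen after seeing the data; fitting only the groups compared was not run for the interaction. Of 200 values for amanitin in BBB, 182 kept direction and call, 13 lost the call and 5 turned; of 190 in BCB, 181, 2 and 6, and 1 gained the call. The 5 in BBB were Atg7 at −0.55, Becn1 at −1.04 and Atg12 at −1.54 log2 scaled to the poly-A controls, and Atg12 at −0.28 with the hybridization controls and −0.46 averaged over its probe sets. The 6 in BCB were Atg7 at −0.52, Becn1 at −1.14 and Atg12 at −1.63 with the poly-A controls, Becn1 at −0.0945 and Atg12 at −0.60 with the hybridization controls, and Atg12 at −0.37 when averaged. Genes of the 10 higher went from 4 to 2 (hybridization) and 0 (poly-A) in BBB and from 3 to 0 (poly-A) in BCB. With the hybridization controls Becn1 was no longer among those higher in BCB. The shares of all genes higher under these scalings are not given here, so the counts describe the members only. The causes were not tested.

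Calls over all genes between untreated kinds went from 103 to 166 with poly-A scaling, 50 and 213 with pseudocounts of 1 and 64, 217 with only the groups compared, 46 without BBB arrays 3 and 4, and 67 to 96 leaving out 1 array. With amanitin they went from 13 to 0 with either control scaling or only the groups compared, 4 with the mean of probe sets, 2 with no trend and 6 to 45 leaving out 1 array. The interaction went from 39 to 14 and 59 with pseudocounts of 1 and 64, 22 without BBB arrays 3 and 4, and 21 to 43 leaving out 1 array. Correlations of same-numbered arrays ran from −0.0991 to 0.133, so the numbers were not taken as pairs; with the replicate block 7 genes in place of 13 were called between amanitin-treated kinds, and Atg12 in BBB lost its call (adjusted p = 0.0615, limma). Treated Calcoco2 and other values under the 40th percentile hold only a bound.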
